A study of Mus musculus with 6 samples.

Results

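The mitochondrial ribosomal protein genes are the nuclear genes whose symbols begin with Mrps, for the small subunit of the mitochondrial ribosome, or Mrpl, for the large one, followed by a number. Members were chosen by symbol alone: transcript rows of the count table were given gene symbols, rows of the same symbol were summed, and every protein-coding symbol of this form was taken. That gave 78 genes of 24553 genes and unmatched rows, 29 of them small-subunit and 49 large-subunit by symbol, and all 78 such symbols of the RefSeq gene table had a row. Total RNA of the cortex was sequenced 14 days after stroke in male C57BL/6J mice aged 15 weeks, and the comparison asks how short-chain fatty acids (SCFA), which gut bacteria make from fibre, alter the post-stroke cortex. The 3 SCFA animals drank SCFA and the 3 control animals a salt-matched control, ad libitum over 4 weeks that began when they were 6 to 8 weeks old. All animals of both groups had also been given 4 antibiotics in the drinking water (Ampicillin, Metronidazol, Neomycin and Vancomycin, sweetened with 5% sucrose), so no group shows the cortex of mice with an untouched gut flora. There was no group without stroke, and neither the stroke model nor the hemisphere is named in the labels. The study's design gives 3 mice for either group, and each library was taken as 1 animal.

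Mitochondria translate the few proteins encoded by their own DNA, all of them subunits of the respiratory chain and ATP synthase, on ribosomes of their own. The RNAs of these ribosomes come from mitochondrial DNA, whereas every protein of both subunits is encoded in the nucleus, made in the cytosol and imported. The small subunit reads the messenger RNA, and the large subunit joins the amino acids and is attached to the inner membrane. Some symbols do not match the place of the protein: Mrps18a and Mrps30 encode proteins found in the large subunit, and the product of Mrps36 belongs to the 2-oxoglutarate dehydrogenase complex.

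Total counts ran from 9275252 to 13862756 per library, of which 34.98% to 55.32% fell on 1 row without a matched gene symbol. Control 2 stood apart on the first principal component, at 109.2 against -25.77 to -17.74 in the other 5 libraries, and had counts in 13600 rows against 15988 to 16941. SCFA 2 stood apart on the second component, at 51.59. The medians of both subunits are given with and without these libraries.

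Summed over the 6 libraries, the 68 members represented by a single transcript row had between 241 and 2792 counts, with a median of 1075. Among these 68, a single library held between 5 counts (Mrpl23 in control 2) and 572 counts (Mrpl39 in SCFA 2). Together the 78 genes gave 11043 to 15918 counts per library, or 2.07 to 2.48 per mille of the counts of protein-coding genes.

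**Figure D1:**
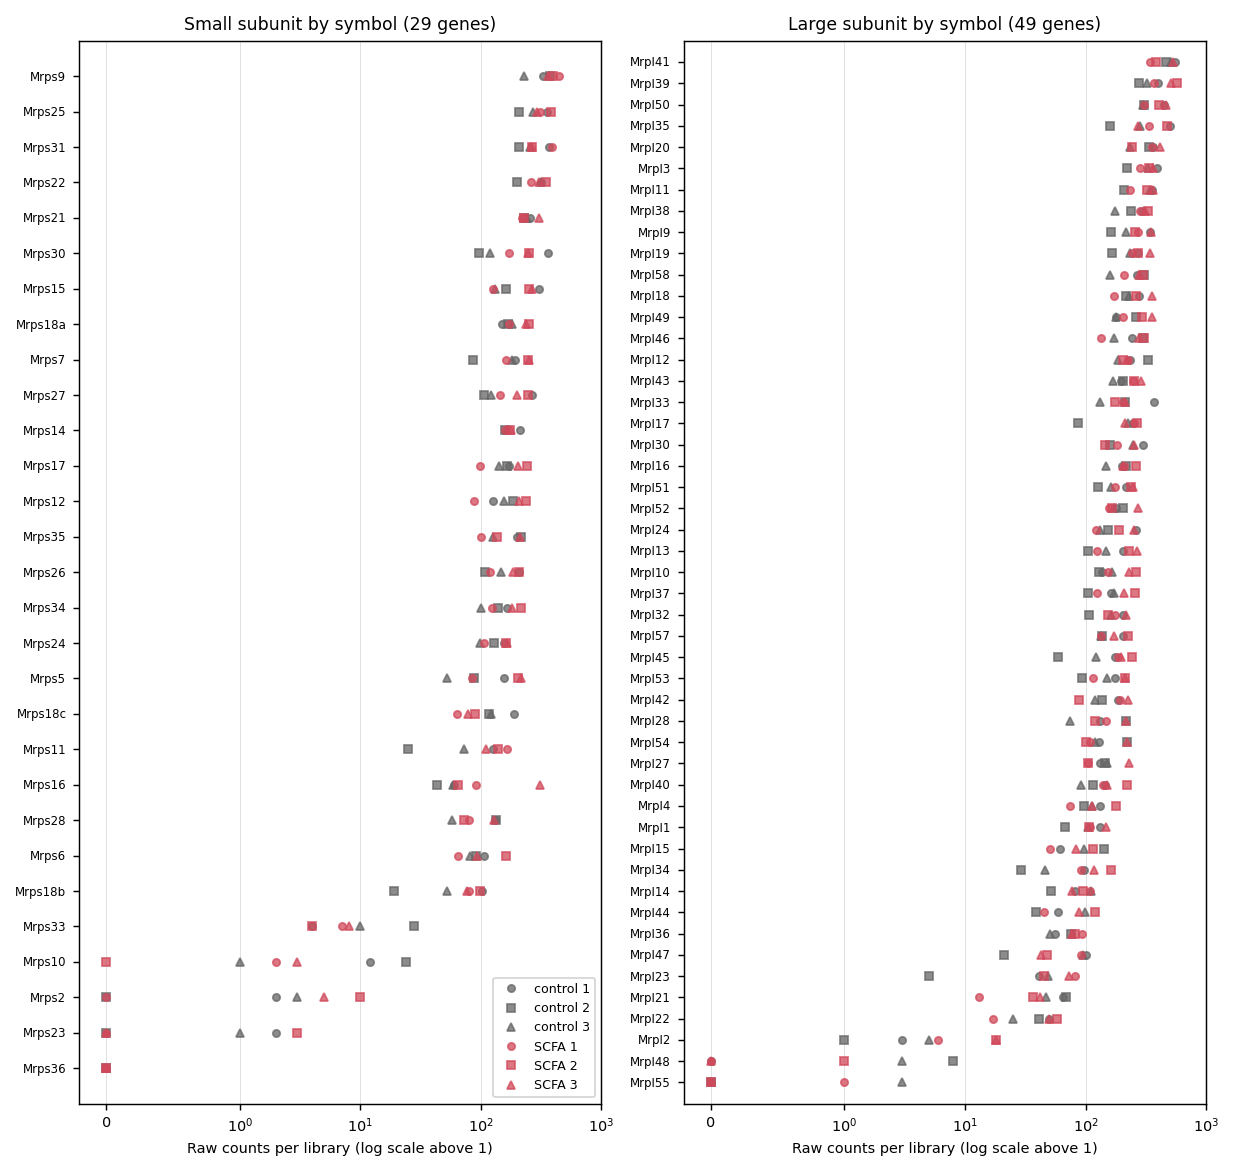
Raw counts of each of the 78 members in each library, on a log axis above 1 count, with the small subunit on the left and the large subunit on the right; circles, squares and triangles are replicates 1, 2 and 3, in grey for control and red for SCFA. The 68 members with 1 row held 5 to 572 counts per library. The 8 genes at the bottom, the members with too few counts to be tested, lie below the others in counts summed over the 6 libraries.

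On the scale of library-scaled counts (CPM) per kilobase of transcript, taken as the mean of the 6 libraries, Mrps21 was the highest of the small-subunit members at 54.2. Its control libraries (replicates 1 to 3, the order used throughout) measured 51.0, 64.6 and 59.6 CPM per kb, and its SCFA libraries 56.2, 38.5 and 55.3. Mrps9, Mrps22, Mrps12, whose product lies near the site where codons are read, and Mrps18a followed at 22.8, 21.5, 20.3 and 19.3 CPM per kb. In the large subunit Mrpl41 led at 54.0 CPM per kb, with 58.1, 69.1 and 65.7 in controls and 46.3, 34.1 and 51.0 with SCFA. Mrpl52 (41.3), Mrpl33 (40.7), Mrpl20 (38.5) and Mrpl58 (30.3) came next on this scale. Mrpl58 encodes a hydrolase of the release factor family that is built into the large subunit. The levels of Mrps21 and Mrpl41 overlapped between libraries, so these leading members cannot be ordered. The medians were 11.0 CPM per kb over the 24 small-subunit members with 1 row and 12.5 over the 44 large-subunit members with 1 row. For some members the length used exceeded the annotated span of the gene. Examples are Mrps26 (4278 bases, for 130563757 to 130565394 on chromosome 2) and Mrpl51 (3427 bases, for 125192200 to 125194392 on chromosome 6). Their values per kb, and with them the medians, may be too low. Of the 10 leading members, 5 (2 small-subunit and 3 large-subunit) also led their subunit per kilobase of coding sequence, so the order depends on the length used.

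Whether a member could be tested at all followed the number of transcript rows it had. All 68 members with 1 row passed the low-count filter, but only 2 of the 10 with several rows did, Mrpl1 and Mrpl15. The other 8 were Mrpl2 with 51 counts in the 6 libraries together, Mrpl48 with 12, Mrpl55 with 4, Mrps10 with 42, Mrps2 with 20, Mrps23 with 6, Mrps33 with 61 and Mrps36 with 0. Mrps36 at 0 allows up to 3 counts per library, which is 0.206 to 0.346 CPM, for counting error only. For Mrpl2 the counts of replicates 1 to 3 were 3, 1 and 5 in the control group and 6, 18 and 18 in the SCFA group. For Mrps33 they were 4, 28 and 10, and 7, 4 and 8. The SCFA values of Mrpl2 all lay above the controls in CPM, and those of Mrps33 did not separate from them.

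**Figure D2:**
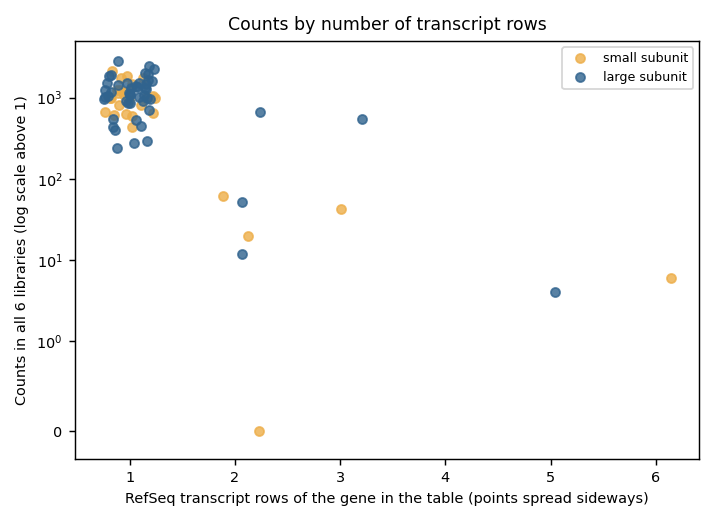
Counts of each member summed over the 6 libraries (log axis above 1 count) against the number of its transcript rows in the table; points are genes and are spread sideways to be visible. The 68 members with 1 row lie at 241 counts or more, and 8 of the 10 with several rows lie at 61 or fewer.

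The rows of these 10 genes were compared with the exon bases that no other row of the table covers. Of the 3 rows of Mrpl15 the one with counts (551) had 55.1% of its bases to itself, and the other rows, with none of their own, stood at 0. In Mrpl1 the row with 76.4% unique bases had 630 counts and the row with 47.7% had 36. No row of Mrps23 and no linked row of Mrpl55 had a base of its own, and the most any of them held was 5 counts. Other rows did not follow this order. Mrpl48 had 12 counts on a row with 71.7% unique bases and Mrps33 had 61 on a row with 54.8%, while rows without a unique base held 51 counts in Mrpl2 and 20 in Mrps2. Rows linked to 1 transcript have no unique base by construction. Both rows of Mrpl2 had 1031 bases and both of Mrps2 2080, so whether these 2 genes break the order cannot be told. Equal lengths also occurred among the rows of Mrps23 (1332 and 1404 bases) and Mrpl55 (757 and 940), and in the Mrpl15 rows without counts (1894). Whether those genes follow the order cannot be told either. Over the whole table, 88.5% of the 6279 rows without a unique base from genes with several rows were at 0, against 23.9% of the 880 rows of such genes that were more than 50% unique. Rows linked to 1 transcript may be among those 6279. Protein-coding genes with 1 row were tested in 61.3% of cases and those with 2 or more in 34.3%. The labels do not say how reads shared by several transcripts were treated, so the low counts of these 8 members were not read as low expression.

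Many members lie close to a neighbour. The span of 25 of the 78 overlaps another annotated gene on either strand (10 small-subunit, 15 large-subunit), such as Mrps6 with Slc5a3, Mrpl21 with Ighmbp2 and Mrpl43 with Twnk. The share of all genes with such an overlap was not taken, so this count is not read as particular to the members. The labels do not name the strand setting of the counting, so reads of such pairs may be mixed. Of the 69 members with a promoter window, 25 (36.2%) start within 1 kb of a protein-coding gene read in the opposite direction, against 8.84% of 16424 protein-coding genes and 12% of the 8829 that were tested. Some partners are mitochondrial genes themselves; they are picked here as examples, and their share among all partners was not counted. Mrps11 and Mrpl46 start 42 bases apart, Mrpl43 lies 116 bases from Twnk, the mitochondrial DNA helicase gene, Mrps12 lies 147 bases from Sars2, the mitochondrial seryl-tRNA synthetase gene, and Mrpl47 lies 308 bases from Ndufb5, a complex I subunit gene.

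The promoter windows, 250 bases before to 50 after the start in RefSeq (GRCm38.p6), share short sequence motifs. The letters CCGGAAG, the core bound by ETS family factors such as GABP, were found on either strand in 36.2% of 69 windows, against 12.3% of all protein-coding windows and 17.3% of those of tested genes. The letters GCGC, any base and TGCGC, the site of nuclear respiratory factor NRF1, were found in 18.8% against 6.94% and 9.79%. AAGATGGC, a YY1 site, was found in 17.4% against 3.32% and 4.63%. At least 1 of the 3 was present in 60.9% of member windows, against 20.3% of all and 28.3% of tested ones. No ETS match overlapped a YY1 match in a member, and such an overlap was rare everywhere, in 0.00609% of all and 0.0113% of tested windows. The letters TATAAA were found in 5.8% of member windows, against 13.1% and 7.07%. By subunit, ETS letters were found in 42.3% of small-subunit and 32.6% of large-subunit windows, and NRF1 letters in 11.5% and 23.3%. A match describes letters and does not show binding. The stretches below are shown because they hold such a match upstream of the start in a member with a high level, separated groups or (Mrpl12) one of the smallest p values, and lie in no annotated gene. They are 60 bases long, written 5′ to 3′ on the strand of the gene, with the match in capitals.
Mrps22, ETS letters, chr9:98601680-98601739, minus strand: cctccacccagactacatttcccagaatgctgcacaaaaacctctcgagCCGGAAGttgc
Mrps18a, ETS letters, chr17:46110944-46111003, plus strand: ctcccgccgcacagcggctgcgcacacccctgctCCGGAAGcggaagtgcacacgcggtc
Mrpl34, ETS letters, chr8:71464862-71464921, plus strand: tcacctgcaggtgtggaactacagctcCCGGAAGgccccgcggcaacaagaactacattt
Mrpl52, ETS letters on the opposite strand, chr14:54426835-54426894, plus strand: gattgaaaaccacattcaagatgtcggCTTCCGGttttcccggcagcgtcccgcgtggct
Mrpl12, NRF1 letters, chr11:120484531-120484590, plus strand: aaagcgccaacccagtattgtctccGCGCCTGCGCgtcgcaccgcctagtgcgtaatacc
Mrpl39, NRF1 letters, chr16:84735335-84735394, minus strand: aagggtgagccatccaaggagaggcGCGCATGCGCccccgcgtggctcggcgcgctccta
The stretch of Mrps22 ends at the base before the start, as does that of Mrps18a, and that of Mrpl39 lies 90 bases upstream of it.

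No member passed the test of SCFA against control. Of the 70 members tested (24 small-subunit and 46 large-subunit), 0 were higher and 0 lower by edgeR's quasi-likelihood test with Benjamini-Hochberg adjustment over 11969 genes at 0.05, and DESeq2 and limma-voom also called 0. In all genes tested the same call gave 0.00835% higher and 0.0752% lower. The smallest adjusted p of a member was 0.83. At an unadjusted p under 0.05 there were 2 members higher and 3 lower (2 and 3 in DESeq2, 1 and 3 in limma-voom), where 2.97% of all genes tested were higher and 2.79% lower. The 3 SCFA libraries lay above all 3 controls in 3 tested members (Mrpl34, Mrpl39 and Mrpl45) and below them in 3 (Mrps18c, Mrpl21 and Mrpl41), beside 6.42% and 5.74% of all genes tested. These shares are close to the background. In bulk tissue, fewer cells of a type and less RNA per cell cannot be told apart.

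The log2 fold changes of the 70 members, SCFA over control, ran from -1.33 in Mrpl21 to 1.24 in Mrps16, with a median of -0.024, beside 0.0085 over all genes tested. Of these, 38 (54.3%) lay below 0, beside 49.1% of all genes. For 49 of the 70 (70.0%) the 95% interval lay within a 2-fold change in either direction, which held for 49.2% of all genes, and the median standard error was 0.293 beside 0.333. The measurements therefore bound most members to less than a 2-fold change without showing that they were equal.

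**Figure D3:**
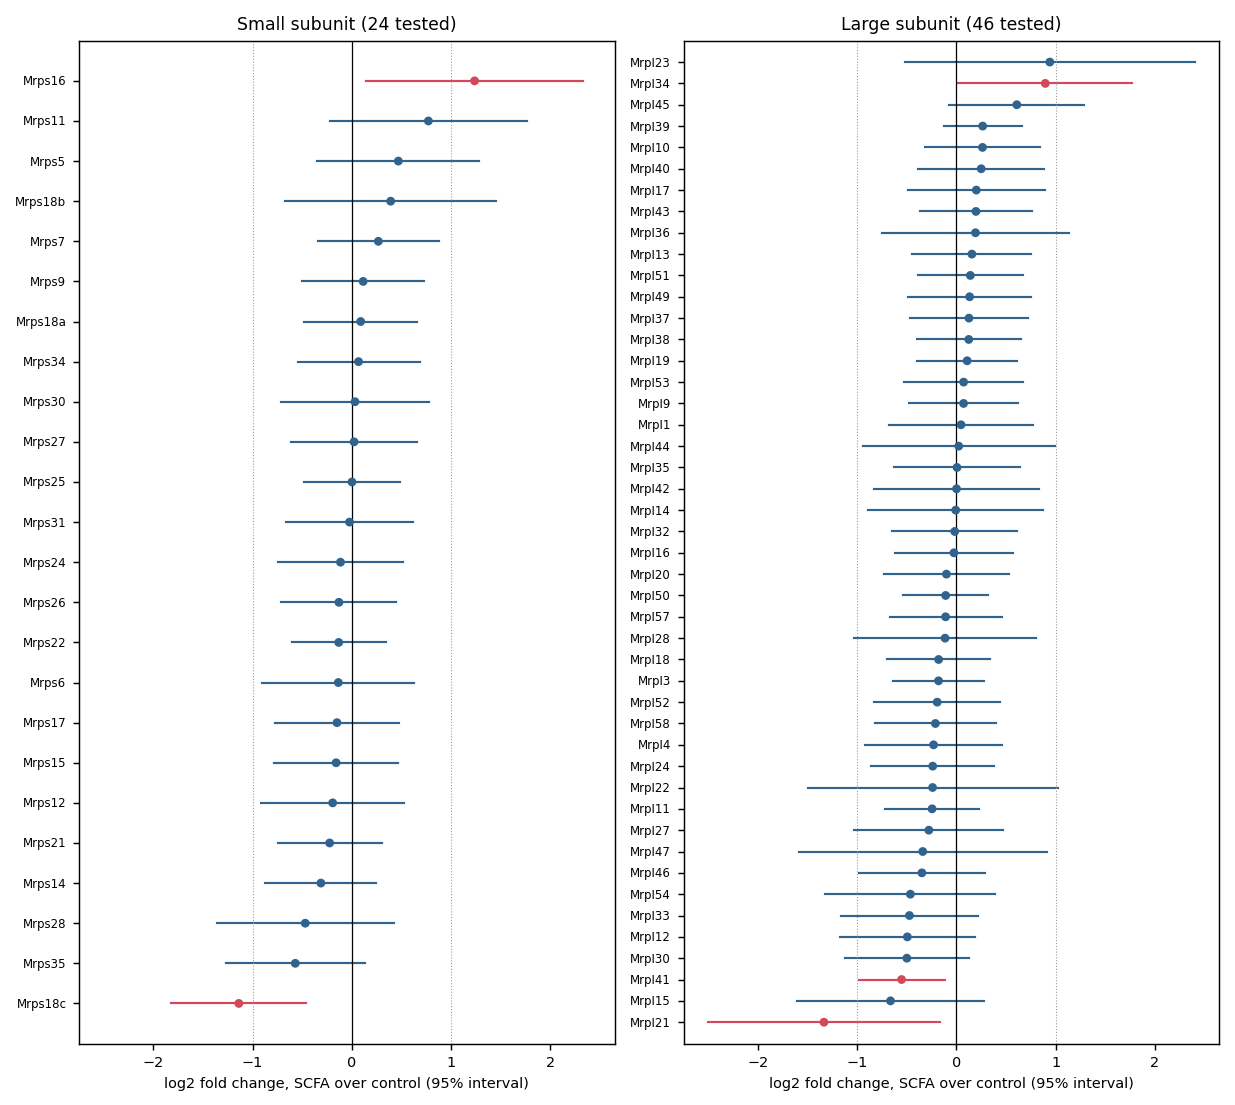
Log2 fold change, SCFA over control, of the 24 small-subunit (left) and 46 large-subunit (right) members tested, with 95% intervals and dotted lines at a 2-fold change; red marks the 5 members with an unadjusted p under 0.05. Most intervals include 0, and none of the 5 in red passes the adjusted threshold.

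**Figure D4:**
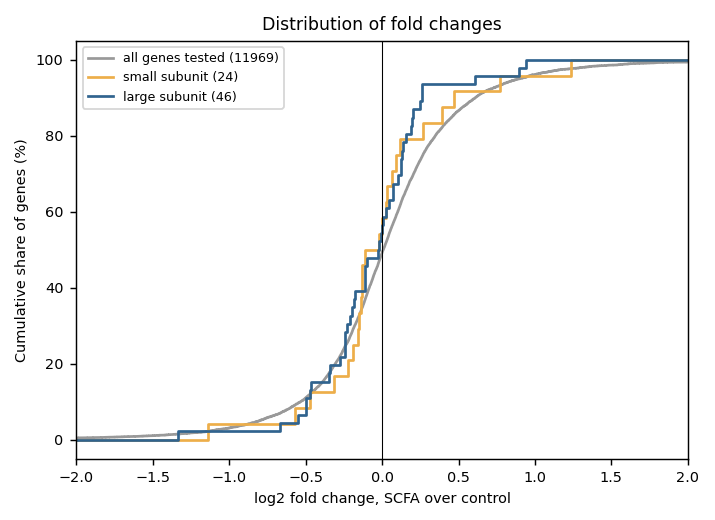
Cumulative share of genes (in percent) by log2 fold change, SCFA over control, for the small subunit (24), the large subunit (46) and all 11969 genes tested. The curves of both subunits lie close to that of all genes and cross 50% just below 0, at -0.068 and -0.022; the axis ends at -2 and 2.

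Among the small-subunit members, Mrps18c had the smallest p. Its product is related to those of Mrps18a and Mrps18b, and all 3 are related to the same bacterial protein. The counts of Mrps18c (chromosome 5, 100798759 to 100804467) were 187, 116 and 122 in the control libraries, against 63, 89 and 78 in the SCFA libraries. Scaled to library size these were 15.1, 13.4 and 12.2 CPM against 6.58, 6.12 and 5.81, or 13.6 ± 1.47 against 6.17 ± 0.39 (SD, n = 3 each). The groups were well apart in every library. The log2 fold change was -1.14 (SE 0.315, 95% interval -1.82 to -0.46), with an unadjusted p of 0.00307 and an adjusted p of 0.83 in edgeR's quasi-likelihood test. Leaving out any 1 library kept the value between -1.21 and -1.05, and over all alternatives the adjusted p ran from 0.237 to 1.0. Its relatives differed from it in value: Mrps18a was at 0.09 (SE 0.263) and Mrps18b at 0.39 (SE 0.491), the latter at 0.03 without control 2. The gene that starts 159 bases from Mrps18c in the opposite direction, Helq, was at 0.23 (SE 0.495).

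Mrps16 had the highest fold change of the small-subunit members, and 1 library carried it. Its control libraries held 60, 43 and 59 counts and its SCFA libraries 91, 64 and 311, or 4.86, 4.96 and 5.91 CPM against 9.51, 4.40 and 23.2. SCFA 3 lay far above all other libraries, and SCFA 2 lay below all 3 controls. The log2 fold change of 1.24 (SE 0.508, unadjusted p 0.0299) became 0.40 without SCFA 3. Without control 2 and SCFA 2 it was 1.61, with an adjusted p of 0.189 in edgeR's quasi-likelihood test, the smallest of any member under any alternative.

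The other small-subunit members with the smallest p overlapped between groups. Mrps35 had a log2 fold change of -0.57 (SE 0.325), Mrps11 of 0.77 (SE 0.459), Mrps5 of 0.47 (SE 0.378) and Mrps14 of -0.31 (SE 0.259). Mrps35 stood at 16.03, 24.7 and 12.6 CPM in controls and 10.6, 9.42 and 15.9 with SCFA, and without control 2 its value was -0.26. Mrps11 stood at 10.2, 2.88 and 7.21 CPM in controls and 17.3, 9.49 and 8.19 with SCFA. Control 2 was the low library there, and the value of Mrps11 was 0.41 without it and 0.38 without SCFA 1. Mrps5 was at 0.18 without control 3. Mrpl46, which shares the start region of Mrps11 and is named for that reason, was at -0.35 (SE 0.296), with control 2 the highest library at 34.4 CPM, and its value was 0.014 without control 2. Mrps12, Mrps30 and Mrps6, a gene whose span holds Slc5a3, were at -0.19, 0.03 and -0.14, with standard errors of 0.334, 0.347 and 0.356.

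In the large subunit, Mrpl41 was both the most abundant member and the one with the smallest p. Its product is found in mitochondrial but not bacterial ribosomes. For Mrpl41 (chromosome 2, 24972470 to 24975098) the controls gave 557, 465 and 509 counts and the SCFA libraries 344, 385 and 532. That is 45.1, 53.6 and 51.0 CPM against 35.9, 26.5 and 39.6, or 49.9 ± 4.36 against 34.0 ± 6.78 (SD, n = 3 each). Each SCFA library lay below each control, with SCFA 2 the lowest. The log2 fold change was -0.55 (SE 0.201, unadjusted p 0.0161) and the adjusted p 0.864 in edgeR's quasi-likelihood test, and the value was -0.39 without SCFA 2.

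Mrpl21 (chromosome 19, 3282997 to 3292837) was less abundant, with 65, 69 and 47 counts in controls and 13, 37 and 42 with SCFA. In CPM these were 5.26, 7.95 and 4.70 against 1.36, 2.54 and 3.13. The groups did not overlap, and SCFA 1 was the lowest. Its log2 fold change was -1.33 (SE 0.541, unadjusted p 0.0281, adjusted p 0.864 in edgeR's quasi-likelihood test), between -1.59 and -1.06 with any 1 library left out. Ighmbp2, which overlaps it and starts 32 bases away on the other strand, was at 0.22 (SE 0.545).

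Mrpl34 (chromosome 8, 71464926 to 71465753), whose promoter stretch with the ETS letters is printed above, gave 97, 29 and 46 control counts against 91, 164 and 118. In CPM it stood at 7.85, 3.34 and 4.61 against 9.51, 11.3 and 8.78, with SCFA 3 just above control 1. The log2 fold change was 0.89 (SE 0.406, unadjusted p 0.0456) and 0.66 without control 2. Mrpl45, whose product lies near the exit of the peptide tunnel, stood at 14.1, 6.80 and 12.2 CPM in controls and 19.5, 16.6 and 14.6 with SCFA. Its log2 fold change was 0.61 (SE 0.316) and 0.36 without the low library, control 2. Mrpl39, with the NRF1 letters shown, was the steadiest of the separated members, at 32.1, 31.8 and 32.5 CPM in controls and 38.4, 39.3 and 38.1 with SCFA. Its log2 fold change was 0.26 (SE 0.182, unadjusted p 0.169). The test draws on the spread of genes of like level, so its standard error is wider than these 6 values alone would give.

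Mrpl30 and Mrpl12 completed the large-subunit members with the smallest p, and both groups overlapped in each. Mrpl30 was at -0.50 (SE 0.288), and at -0.24 without SCFA 2. Mrpl12 encodes the flexible stalk protein that has also been reported to bind the mitochondrial RNA polymerase. It stood at 19.1, 37.9 and 18.5 CPM in controls and 23.3, 14.0 and 16.3 with SCFA. Control 2 was the high library, and the value of -0.49 (SE 0.315) was -0.08 without it. The abundant members Mrpl52, Mrpl33, Mrpl20 and Mrpl58 were at -0.19, -0.47, -0.10 and -0.21, with standard errors from 0.283 to 0.321, and Mrpl33 was at -0.21 without control 1 and -0.28 without SCFA 2. Mrpl44, whose product has a ribonuclease III fold, was at 0.02 (SE 0.448).

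Both subunits lay near 0, and whether they differ from each other was not tested. The median log2 fold change was -0.068 over the 24 small-subunit members and -0.022 over the 46 large-subunit members, while their means had the opposite order, -0.012 and -0.062. With Mrps18a and Mrps30 counted with the large subunit and Mrps36 left out, the medians were -0.12 and -0.013. Summed over the small subunit the level was 386.4 ± 32.2 CPM in controls and 375.7 ± 25.6 with SCFA, and over the large subunit 816.4 ± 48.7 and 775.1 ± 81.4 CPM (SD, n = 3 each). The ratio of large-subunit to small-subunit counts, which needs no scaling between libraries, was 1.987, 2.152 and 2.213 in the control libraries, against 2.095, 1.959 and 2.124. The means were 2.117 ± 0.117 and 2.059 ± 0.0881, a ratio of 0.973, and the groups overlapped for the ratio and for both sums.

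SCFA 2 was the library in which the large subunit deviated most. It was the lowest of the 6 libraries for 23 of the 70 tested members (32.9%), beside 18.5% of all genes tested, and for 17 of the 46 large-subunit members. The median deviation from the mean of the 6 libraries, in log2 CPM, was -0.186 for the large subunit and 0.003 for the small subunit there. In the same library 48 of 82 tested cytosolic ribosomal protein genes (58.5%) and 41 of 72 nuclear-encoded respiratory chain genes (56.9%) were lowest, with median deviations of -0.43 and -0.343. Without SCFA 2 the large-subunit median log2 fold change was 0.014 in place of -0.022, and the small-subunit median -0.069 in place of -0.068. Without SCFA 1 the large-subunit median was -0.106. Without control 2 the large-subunit and small-subunit medians were -0.045 and -0.047, and without control 2 and SCFA 2 together 0.063 and -0.018. Control 2 was the highest library for 22 members (31.4%) and the lowest for 16 (22.9%), beside 24.9% and 31.2% of all genes. With SCFA the median over the cytosolic ribosomal protein genes was -0.12 and over the respiratory chain genes -0.14, with 0 called in each by edgeR, DESeq2 and limma-voom. At an unadjusted p under 0.05 in edgeR, 1 of the 82 cytosolic ribosomal protein genes was higher and 6 were lower. Of the 72 respiratory chain genes, 1 was higher and 4 were lower. In all genes tested, 2.97% were higher and 2.79% lower at that level. SCFA 2 was the lowest library for most genes of both lists. Their medians without it are not given, so these values were not read as a change with SCFA. Whether these lists differ from the mitochondrial ribosomal proteins was not tested.

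**Figure D5:**
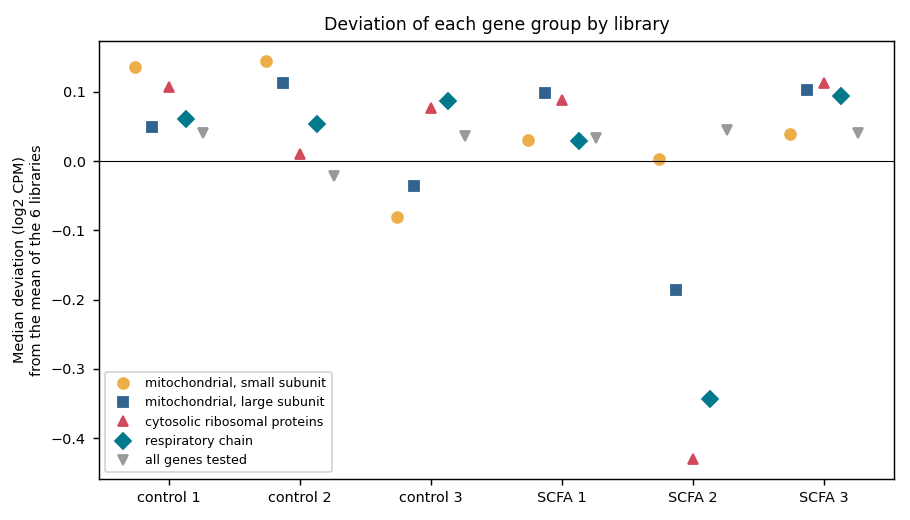
Median deviation, in log2 CPM, of each gene group from its mean over the 6 libraries, for the small and large mitochondrial subunits, cytosolic ribosomal proteins, respiratory chain genes and all genes tested; each point is 1 group in 1 library. SCFA 2 holds the lowest points, -0.186 for the large subunit, -0.343 for the respiratory chain and -0.43 for cytosolic ribosomal proteins, while the small subunit is at 0.003.

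Other parts of mitochondrial translation were measured in the same libraries, and 0 of their genes were called by edgeR, DESeq2 or limma-voom. Of 5 mitoribosomal proteins whose symbols do not begin with Mrp, all 5 were tested and 0 reached an unadjusted p under 0.05 in any of these tools. The small-subunit genes Dap3, Ptcd3, Chchd1 and Aurkaip1 were at 0.14, 0.0035, -0.45 and 0.19, and the large-subunit gene Gadd45gip1 at 0.11, with standard errors from 0.164 for Ptcd3 to 0.559 for Dap3. Of 12 translation factor genes 9 were tested, with a median of -0.0094 and 0 at an unadjusted p under 0.05 in edgeR and limma-voom, and 1 higher in DESeq2. Guf1, an elongation factor gene, had 9, 0 and 14 counts in controls and 40, 26 and 44 with SCFA (log2 fold change 2.08, SE 1.02), while Tsfm and Taco1 were at -0.70 and -0.42. Tufm, the elongation factor that brings tRNAs to the ribosome, stood at 0 in all 6 libraries on 2 transcript rows, as did Mrps36. The treatment of reads shared by transcripts is not named, so the 0 of Tufm was not read as low expression either. Of 21 genes of tRNA charging 17 were tested, with a median of 0.06 and 1 lower at an unadjusted p under 0.05 in edgeR, Mars2 (-0.87, SE 0.332).

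Of 26 genes for ribosomal RNA modification and mitoribosome assembly 24 were tested, with a median of -0.059 and 0 at an unadjusted p under 0.05 in edgeR, and 1 higher in DESeq2 and in limma-voom. The smallest p there belonged to Rpusd3 (1.34, SE 0.658), Rcc1l (-0.80, SE 0.436) and Tfb1m (-0.84, SE 0.499). Of 12 genes for mitochondrial DNA and RNA 11 were tested, with a median of 0.001 and 0 at that level in edgeR, DESeq2 and limma-voom. Tfam, which packages mitochondrial DNA, was at 0.14 (SE 0.256), Polrmt, the mitochondrial RNA polymerase, at 0.56 (SE 0.377) and Lrpprc, which stabilises mitochondrial messengers, at -0.34 (SE 0.166). The medians of the 5 lists lay between -0.059 and 0.11.

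Summed markers of several cell types differed between the libraries. In the neuronal, astrocyte, microglial, endothelial and striatal lists, edgeR called 0 of the genes tested. Summed astrocyte markers (6 genes) ran from 653 to 763 CPM in controls and from 931 to 1470 with SCFA, and summed microglial markers (6 genes) from 191 to 263 and from 309 to 500. The groups overlapped for neuronal markers (6 genes), which ran from 1170 to 1290 and from 1270 to 1460 CPM. These are markers of neurons in general and do not set cortex apart from other brain regions. Endothelial markers (5 genes, Pecam1 and Tek at 0) ran from 42.8 to 56.3 and from 63.5 to 104. Markers of striatal neurons (6 genes) were at 341 CPM in SCFA 2, the library with low large-subunit values, and at 55.7 to 107 in the other 5. Markers of the exocrine pancreas (7 genes) ran from 26.7 to 308 CPM in controls and from 0.275 to 0.836 with SCFA. All 7 were called lower in SCFA by edgeR, where 9 of all 11969 genes tested (0.0752%) were called lower. The list was chosen with earlier results of these data known, so these calls are no separate support. The part of any of these marker lists in the values of the members was not tested.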

How the data were processed

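RNA was sequenced from 6 cortex libraries, 3 SCFA and 3 control. Per the labels' protocols, total RNA from frozen cortex (RNeasy Mini) was made into libraries with Nugen's Ovation Human FFPE kit. The authors deposited raw counts per RefSeq transcript, made with CASAVA 1.8.2 and featureCounts on mm10, per the submitters' processing notes; the labels do not name the aligner, strand setting or treatment of shared reads. Of 34755 rows, 34424 (99.05%) matched a symbol in RefSeq GRCm38.p6. Groups come from the labels.

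The counts were summed per symbol and tested with edgeR 4.0.16 in R 4.3.3 (filterByExpr with minimum count 10 and minimum total 15, TMM, quasi-likelihood F test without covariate, two-sided, Benjamini-Hochberg over 11969 genes, threshold 0.05). CPM use TMM-scaled library sizes, and a standard error is the size of the log2 fold change divided by the square root of F. The alternatives also used limma 3.58.1 and DESeq2 1.42.0. The fit was tested on simulated data, in which 200 of 11969 genes were changed 4-fold. Of these 200 it called 133, so some 4-fold changes were missed, and it also called 2 unchanged genes. Lengths and unique exon bases come from GENCODE M21 transcripts linked to the RefSeq rows; linked transcripts may differ in length, and rows linked to 1 transcript have no unique base.

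Members, lists and tests were chosen with earlier results of these data known. Named members are, per subunit, the 5 highest per kb, the 6 with the smallest p, those with separated groups and an unadjusted p under 0.05, those not tested, and Mrps18a, Mrps18b, Mrps18c, Mrps30, Mrps36, Mrpl58, Mrps6, Mrps12, Mrpl12, Mrps35 and Mrpl44; for the other lists, the 3 with the smallest p and Dap3, Ptcd3, Chchd1, Aurkaip1, Gadd45gip1, Tufm, Lrpprc, Tfam and Polrmt. Mrpl1, Mrpl15, Mrpl23, Mrpl39, Mrpl43, Mrpl46, Mrpl47 and partner genes were named after their values were seen. The result of 1 marker list is not reported here.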

Additional observations from a re-analysis of the deposited data

How the results depend on the processing

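Across 20 alternatives (other scalings, filters and tools, libraries left out, structural RNA removed, unsummed rows, a threshold of 0.1, subunits by place) 0 members were called higher or lower, and the smallest adjusted p of a member ran from 0.189 to 1.0. Over all genes tested, DESeq2 called 13 higher and 16 lower, no filter 30 and 25, and limma-voom 0 and 0. Total-count scaling moved the median of all genes to 0.18 and those of the small and large subunits to 0.105 and 0.125, so both stayed below it. At an unadjusted p under 0.05, leaving out 1 library gave 0 members (without SCFA 3) to 3 (without control 1) higher. Those lower numbered 1 (without SCFA 2) to 6 (without control 3). The share of all genes tested at that level, in either direction, ran from 3.06% (without SCFA 2) to 6.56% (without control 3). In either of these fits 72 members were tested. With 1 library left out, the small-subunit median ran from -0.127 to -0.016, the large-subunit median from -0.106 to 0.014 and the change in the subunit ratio from 0.944 to 0.996. With the replicate number as a block, 0 members were called and the medians were -0.10 and -0.022, while all genes gave 10 higher and 12 lower; deviations of libraries that share a number correlated at only -0.0021, 0.010 and -0.0053, so the numbers were not taken as pairs.

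Some named members changed sign. Without control 2 and SCFA 2 this held for Mrpl12 (0.068), Mrpl20 (0.37), Mrpl44 (-0.37), Mrpl52 (0.22), Mrpl58 (0.16), Mrps21 (0.014) and Mrps30 (-0.18), and with total counts for Mrpl20 (0.070), Mrpl58 (0.017), Mrps12 (0.055), Mrps22 (0.035) and Mrps6 (0.090). With 1 library left out, Mrpl20 ran from -0.34 to 0.18, Mrpl44 from -0.18 to 0.49, Mrpl52 from -0.40 to 0.023, Mrpl58 from -0.44 to 0.16, Mrps12 from -0.43 to 0.086, Mrps18a from -0.086 to 0.21, Mrps22 from -0.23 to 0.006, Mrps30 from -0.20 to 0.64, Mrps6 from -0.41 to 0.0004, Mrps9 from -0.18 to 0.44 and Mrpl46 from -0.53 to 0.014. The cause was not tested. The 68 members with 1 row held 5 to 572 counts per library, and standard errors of tested members ran from 0.182 to 0.678.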
